A study of Mus musculus with 11 samples.

Results

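The genes described here encode the translocases that carry proteins into mitochondria, the TOMM genes of the outer membrane and the TIMM genes of the inner membrane and of the space between the membranes. They were chosen by symbol, as protein-coding genes whose name begins with Timm or Tomm followed by a digit. This gave 25 genes (10 TOMM and 15 TIMM) of the 55414 genes in the table. The RNA came from CD8+ T cells of OT-I mice, whose T cells carry a transgenic receptor for an ovalbumin peptide. Libraries of 3 treatments were made at 12 h. The Torin group (n = 3, numbered 1, 3 and 4) received N4, the stimulating peptide, with Torin, an inhibitor of the growth-controlling kinase mTOR. The stimulated group (n = 4) received N4 with DMSO, the solvent. The naive group (n = 4) was left untreated. All groups carry the OT-I receptor. The labels do not give the dose of Torin or N4, the age of the mice, or whether libraries came from separate animals, so the tests measure the spread between libraries.

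Most mitochondrial proteins are made in the cytosol and imported. Receptors of the TOM complex recognise them, the barrel protein Tomm40 lets them through the outer membrane, and the TIM23 complex with its motor pulls those that carry a presequence into the matrix. Small TIM chaperones escort hydrophobic proteins across the intermembrane space, and the TIM22 complex inserts carrier proteins into the inner membrane. T cells enlarge their mitochondria after activation, and mTOR controls much of the growth programme that goes with it.

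Total estimated counts ranged from 241865667 to 405884097 per library. All 10 CD8 T cell markers examined were detected, with summed levels of 13200 to 14100 CPM (counts scaled to a common library total) in Torin, 6890 to 11300 in stimulated and 9960 to 16600 in naive libraries. Of the 4 CD4 and regulatory T cell markers, Cd4 did not exceed 0.03 CPM. The others reached 1.33 CPM for Foxp3 (Torin 3), 2.68 CPM for Zbtb7b (naive 2) and 18.6 CPM for Cd40lg (stimulated 2). The libraries of number 4 stood apart in B cell markers, of which all 8 were detected. The B cell sum was 13200 CPM in Torin 4, 14400 in stimulated 4 and 47400 in naive 4, against at most 366 CPM in any other library. Granulocyte markers (9 of 9 detected) summed to 2070 CPM in stimulated 2 and 8570 in naive 2, against at most 176 in any other library. Naive 2 also had the highest sums of monocyte and macrophage markers (1940 CPM) and NK cell markers (1030 CPM). Where a named gene's call was lost without the libraries of number 2 or 4, this is said beside it. In bulk RNA of this kind, a change in the share of cells and a change in RNA per cell cannot be told apart.

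Of the 25 genes, 24 had enough counts to be tested. Tomm20l, a paralog of the receptor Tomm20, had 4 counts in Torin 1 and 0 counts in the other 10 libraries and was not tested. Timm8a2, a paralog of Timm8a1, was tested on very few counts. It had 0 counts in Torin 1, 3 and 4, then 0, 0, 0 and 145 counts in stimulated 1 to 4, and 103, 60, 13 and 88 counts in naive 1 to 4. Stimulated 4 alone of its group thus carried the gene, and no fold is read from it. Its fitted changes appear only where the processing alternatives are listed. The other 23 genes were detected in every library.

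Scaled by transcript length and to a common total (TPM), the 25 genes together made up 5961 ± 189 TPM in Torin, 6531 ± 403 TPM in stimulated and 3266 ± 566 TPM in naive libraries (mean ± SD, n = 3, 4 and 4). The naive libraries (2445 to 3726 TPM) lay below all others, and the Torin libraries (5774 to 6153 TPM) overlapped the stimulated ones (6028 to 6981 TPM). Tomm5, a small TOM subunit that in yeast helps pass precursors to the channel, had the highest length-scaled level in both N4-treated groups, at 1300 ± 96.3 TPM in Torin and 1870 ± 89.3 TPM in stimulated libraries, and 454 ± 139 TPM in naive libraries. In naive cells Tomm6 (467 ± 67.8 TPM), Tomm5 and Timm13 (437 ± 76.4 TPM) led without differing beyond their spread. In stimulated cells Timm8b followed Tomm5 at 859 ± 52.8 TPM, then Tomm7 at 701 ± 276 TPM and Timm13 at 589 ± 141 TPM, and these last 2 overlapped. In Torin cells Tomm7 (764 ± 80.9 TPM) and Timm13 (675 ± 102 TPM) came after Tomm5, followed by Tomm6 (537 ± 97.4 TPM), Timm10 (516 ± 87.3 TPM) and Timm8b (513 ± 48.8 TPM), which lay within each other's spread. These levels depend on the length used. With the mean length of protein-coding transcripts Timm13 had 1190 TPM in Torin, 1030 TPM in stimulated and 763 TPM in naive libraries, which put it above Tomm5 (534 TPM) and Tomm6 (578 TPM) in naive libraries. Timm17a then had 155 TPM in Torin, 207 TPM in stimulated and 70.5 TPM in naive libraries, in place of 67.3, 82.4 and 36 TPM. For Tomm40l the order of groups turned, with 5.4 TPM in stimulated and 4.78 TPM in naive libraries in place of 7.53 and 11.7 TPM. At the low end, the receptor gene Tomm70a had 6.91 ± 1.18 TPM in Torin, 6.95 ± 0.617 TPM in stimulated and 3.27 ± 1.49 TPM in naive libraries, and Timm29 had 1.85 ± 0.725, 1.95 ± 1.21 and 3.78 ± 2.22 TPM in the same order of groups.

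**Figure D1:**
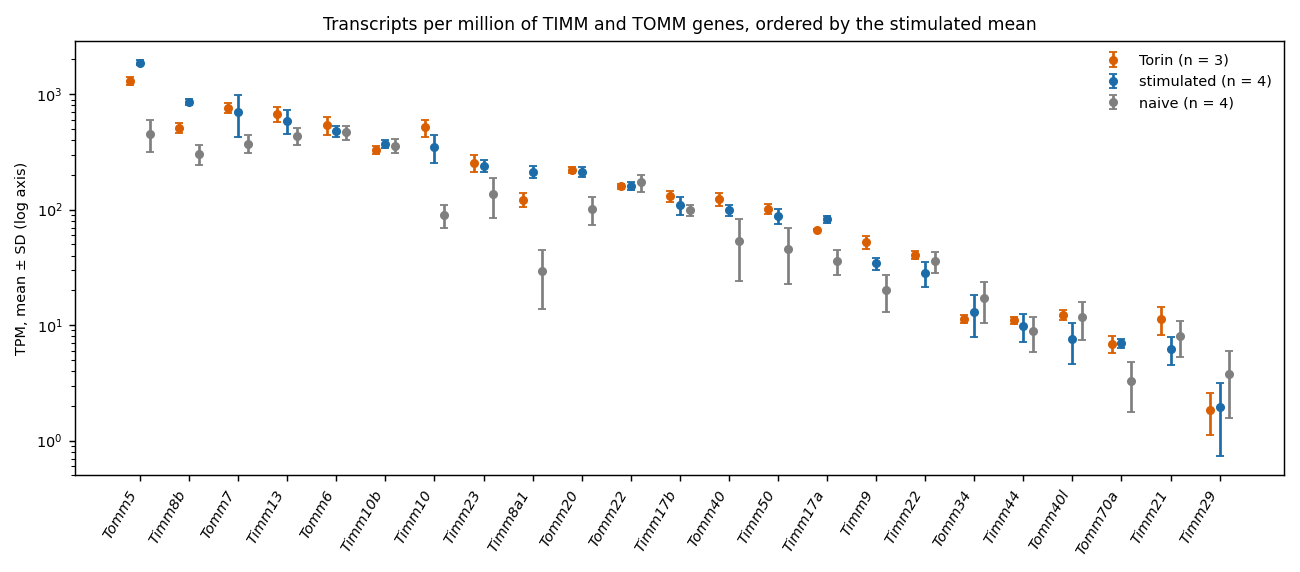
Length-scaled level (TPM, log axis, mean ± SD) of the 23 genes detected in every library, in Torin (n = 3), stimulated (n = 4) and naive (n = 4) libraries, ordered by the stimulated mean. Tomm5 leads at 1300 TPM in Torin and 1870 TPM in stimulated libraries, while Timm29 ends the row at 1.85, 1.95 and 3.78 TPM in Torin, stimulated and naive libraries.

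The first comparison asked how N4 stimulation changed the import genes relative to naive cells. After 12 h, 19 of the 24 tested genes rose (79.2%), none fell and 5 did not pass the threshold. The median log2 change was 1.25, beside -0.22 for all 22238 genes tested. Of all genes, 39.5% changed, 19.2% higher and 20.2% lower (edgeR quasi-likelihood test, Benjamini-Hochberg adjusted p under 0.05). Of the import genes, 0 were lower at an unadjusted p under 0.05 or in DESeq2. In 19 of the 24 import genes every stimulated library lay above every naive library, a pattern held by 19.8% of all genes. The rises spread over every layer of the machinery: all 3 receptors, the channel, all 3 small TOM subunits, 4 of 5 TIM23 genes, the motor anchor and 5 of 6 small TIM chaperones rose, against 1 of 3 TIM22 genes. With library totals in place of composition factors, the median of all genes moved to -0.705, calls over all genes split into 2600 higher and 6529 lower, and 14 of the 19 import genes kept their call. The median of the 24 import genes moved to 0.73 alongside.

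The 4 largest rises were those of Timm8a1, Tomm5, Timm10 and Timm17a. For these genes, chosen by the size of the rise alone, the 250 bases before the start site are shown. The bases are from RefSeq on GRCm38.p6, 5′ to 3′ on the strand of the gene. Capitals mark CACGTG, the E-box bound by Myc and related factors, and CCGGAAG, a site of ETS family factors, here on the opposite strand as CTTCCGG. The windows are chrX:134541671-134541920 for Timm8a1 (minus strand), chr4:45108114-45108363 for Tomm5 (minus strand), chr2:84826771-84827020 for Timm10 (plus strand) and chr1:135313738-135313987 for Timm17a (minus strand).
Timm8a1: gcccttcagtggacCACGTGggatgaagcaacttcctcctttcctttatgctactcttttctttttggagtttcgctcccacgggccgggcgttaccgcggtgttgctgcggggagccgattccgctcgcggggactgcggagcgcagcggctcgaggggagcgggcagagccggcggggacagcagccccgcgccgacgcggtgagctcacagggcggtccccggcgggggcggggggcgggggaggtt
Tomm5: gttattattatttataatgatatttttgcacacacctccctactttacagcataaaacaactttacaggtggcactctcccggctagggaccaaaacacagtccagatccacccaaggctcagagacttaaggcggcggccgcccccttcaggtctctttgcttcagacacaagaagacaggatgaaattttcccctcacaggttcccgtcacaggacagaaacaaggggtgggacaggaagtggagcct
Timm10: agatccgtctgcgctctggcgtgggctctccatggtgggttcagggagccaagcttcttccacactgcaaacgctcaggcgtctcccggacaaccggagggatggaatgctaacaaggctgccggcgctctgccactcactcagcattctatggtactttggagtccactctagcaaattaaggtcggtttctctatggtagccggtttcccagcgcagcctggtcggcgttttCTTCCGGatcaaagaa
Timm17a: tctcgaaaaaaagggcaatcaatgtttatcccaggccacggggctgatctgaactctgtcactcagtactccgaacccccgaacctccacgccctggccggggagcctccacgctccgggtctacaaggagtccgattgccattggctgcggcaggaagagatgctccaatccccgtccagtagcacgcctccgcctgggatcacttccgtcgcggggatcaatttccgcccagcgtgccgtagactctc
In RefSeq, 22 of the 25 genes had a promoter entry, from 250 bases before to 50 bases after the start site, and each was searched on both strands, as were those of 27025 gene symbols in all. CACGTG was present in 5 of the 22 (22.7%; Timm10, Timm8a1, Timm9, Tomm20 and Tomm20l), beside 8.09% of all promoters. CCGGAAG was present in 9 of the 22 (40.9%), beside 9.93% of all. The carriers were Timm10, Timm10b, Timm23, Timm29, Timm8a2, Timm8b, Tomm22, Tomm34 and Tomm70a. Timm29, Timm8a2 and Tomm34 among them did not pass between stimulated and naive libraries. ATGGCGG, the core of the YY1 site, was present in 3 of the 22 (13.6%; Timm44, Timm50 and Timm8b), beside 4.69%. The palindromic site of the respiratory factor NRF1 and TGATGNAAT, an element read by ATF4 under stress, were found in none of the 22, beside 1.07% and 1.08% of all promoters. Matches of different motifs did not overlap, while CCGGAAG matches on opposite strands overlapped each other in Timm10 and in Tomm22. The 250 bases shown for Tomm5 and Timm17a and the 50 after them held none of the 5 motifs. These matches describe letters in a window and do not show binding.

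Among the receptors, Tomm20, which recognises presequences, had 389, 488, 480.2 and 430.1 CPM in stimulated 1 to 4, against 145, 137, 115 and 107 CPM in naive 1 to 4. The groups lay well apart, with a log2 change of 1.83 (SE 0.144, adjusted p = 9.89e-06). Tomm70a, which receives carrier precursors and their cytosolic chaperones, averaged 56.9 ± 5.32 CPM in stimulated and 16.8 ± 4.31 CPM in naive libraries and rose by 1.76 (SE 0.185, adjusted p = 3.51e-05). Tomm22, the central receptor, rose least of the 3, at 325 ± 22.0 CPM in stimulated against 230.1 ± 17.6 CPM in naive libraries (log2 change 0.50, SE 0.108, adjusted p = 0.00362). With library totals alone that change was 0.007 (adjusted p = 0.966).

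The channel gene Tomm40 had 195, 229, 297 and 186 CPM in stimulated 1 to 4, against 111, 75.1, 59.1 and 52.4 CPM in naive 1 to 4. Naive 1 was the highest naive library, and the log2 change was 1.61 (SE 0.246, adjusted p = 0.000374). Its paralog Tomm40l, much less abundant, averaged 14.3 ± 3.34 CPM in stimulated and 8.12 ± 2.19 CPM in naive libraries and rose by 0.82 (SE 0.228, adjusted p = 0.0143). That call was lost with library totals alone (0.34, adjusted p = 0.368) and without the libraries of number 2 (0.74, adjusted p = 0.0621).

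The small TOM subunits stabilise the complex around the channel. Tomm5 had 1455, 1657, 1936 and 1634 CPM in stimulated 1 to 4, against 287, 298, 231 and 212 CPM in naive 1 to 4. Every stimulated library was several times above every naive one, a log2 change of 2.7 (SE 0.154, adjusted p = 6.09e-06). Tomm7 had 608, 1067, 2094 and 832 CPM in stimulated 1 to 4, against 253, 455, 439 and 398 CPM in naive 1 to 4, with stimulated 3 far above the rest of its group. Its log2 change was 1.58 (SE 0.346, adjusted p = 0.00384). Tomm6 rose by 0.64 (SE 0.193, adjusted p = 0.021), at 475 ± 105 CPM in stimulated and 304 ± 48.9 CPM in naive libraries. Its call was lost with library totals alone (0.15, adjusted p = 0.453) and without naive 1 (0.54, adjusted p = 0.0529).

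In the TIM23 group, Timm17a, a short-lived channel subunit, had 631, 689, 752 and 746 CPM in stimulated 1 to 4, against 162, 176, 139 and 131 CPM in naive 1 to 4. The groups were tight and far apart, with a log2 change of 2.21 (SE 0.13, adjusted p = 6.09e-06). Its paralog Timm17b, which builds alternative TIM23 complexes, rose by 0.72 (SE 0.134, adjusted p = 0.0014), and by 0.23 with library totals alone (adjusted p = 0.162). Timm23, the core of the channel, averaged 372 ± 17.9 CPM in stimulated and 136 ± 25.4 CPM in naive libraries (log2 change 1.45, SE 0.152, adjusted p = 3.46e-05). The presequence receptor gene Timm50 averaged 183 ± 20 and 57.9 ± 17.9 CPM in stimulated and naive libraries and rose by 1.66 (SE 0.207, adjusted p = 9.74e-05). Timm21, which links TIM23 to TOM and to the respiratory chain, did not pass (log2 change 0.30, adjusted p = 0.447), with stimulated values of 11.5, 24.4, 29.2 and 15.0 CPM on both sides of the naive range of 14.0 to 19.8 CPM. Timm44, which tethers the import motor to the channel, rose by 0.74 (SE 0.163, adjusted p = 0.00384), and by 0.26 with library totals alone (adjusted p = 0.364).

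The TIM22 complex behaved unevenly. Timm10b, the small TIM protein bound to that complex, had 483, 475, 679 and 489 CPM in stimulated 1 to 4, against 229, 294, 317 and 294 CPM in naive 1 to 4 (log2 change 0.91, SE 0.16, adjusted p = 0.000953). Stimulated 3 was the highest library. Timm22, the channel-forming subunit, had 49.1, 78.1, 125 and 53.6 CPM in stimulated 1 to 4, against 64.5, 69.0, 77.0 and 57.0 CPM in naive 1 to 4. The groups overlapped and the log2 change was 0.19 (SE 0.259, adjusted p = 0.595), turning to -0.35 with library totals alone (adjusted p = 0.223) and to -0.07 without stimulated 3. Timm29, a metazoan subunit of the complex, was low and variable at 8.06 ± 3.79 CPM in stimulated and 10.2 ± 4.02 CPM in naive libraries (log2 change -0.34, adjusted p = 0.499). Tomm34, a cytosolic protein that binds precursors together with heat shock proteins, also did not pass (log2 change 0.17, SE 0.206, adjusted p = 0.559).

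Among the small TIM chaperones, Timm8a1, the mouse counterpart of the gene mutated in human deafness-dystonia syndrome, rose most of all 24 genes. It had 329, 472, 512 and 373 CPM in stimulated 1 to 4, against 47.3, 50.9, 23.3 and 22.4 CPM in naive 1 to 4. Naive 1 and naive 2 were above the other naive libraries, and the log2 change was 3.55 (SE 0.309, adjusted p = 1.36e-05), an 11.7-fold difference. Timm10, which with Timm9 forms the hexamer that carries hydrophobic precursors, had 268, 300.3, 565 and 241 CPM in stimulated 1 to 4, against 49.9, 68.7, 57.9 and 45.7 CPM in naive 1 to 4. Its groups did not overlap either, with stimulated 3 the highest library again (log2 change 2.63, SE 0.278, adjusted p = 3.64e-05). Timm8b, a paralog of Timm8a1, rose by 2.14 (SE 0.161, adjusted p = 8.52e-06) and Timm9 by 1.37 (SE 0.196, adjusted p = 0.000238). Timm13, which pairs with Timm8 proteins, averaged 975 ± 379 CPM in stimulated and 445 ± 76.1 CPM in naive libraries (log2 change 1.13, SE 0.254, adjusted p = 0.00439).

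**Figure D2:**
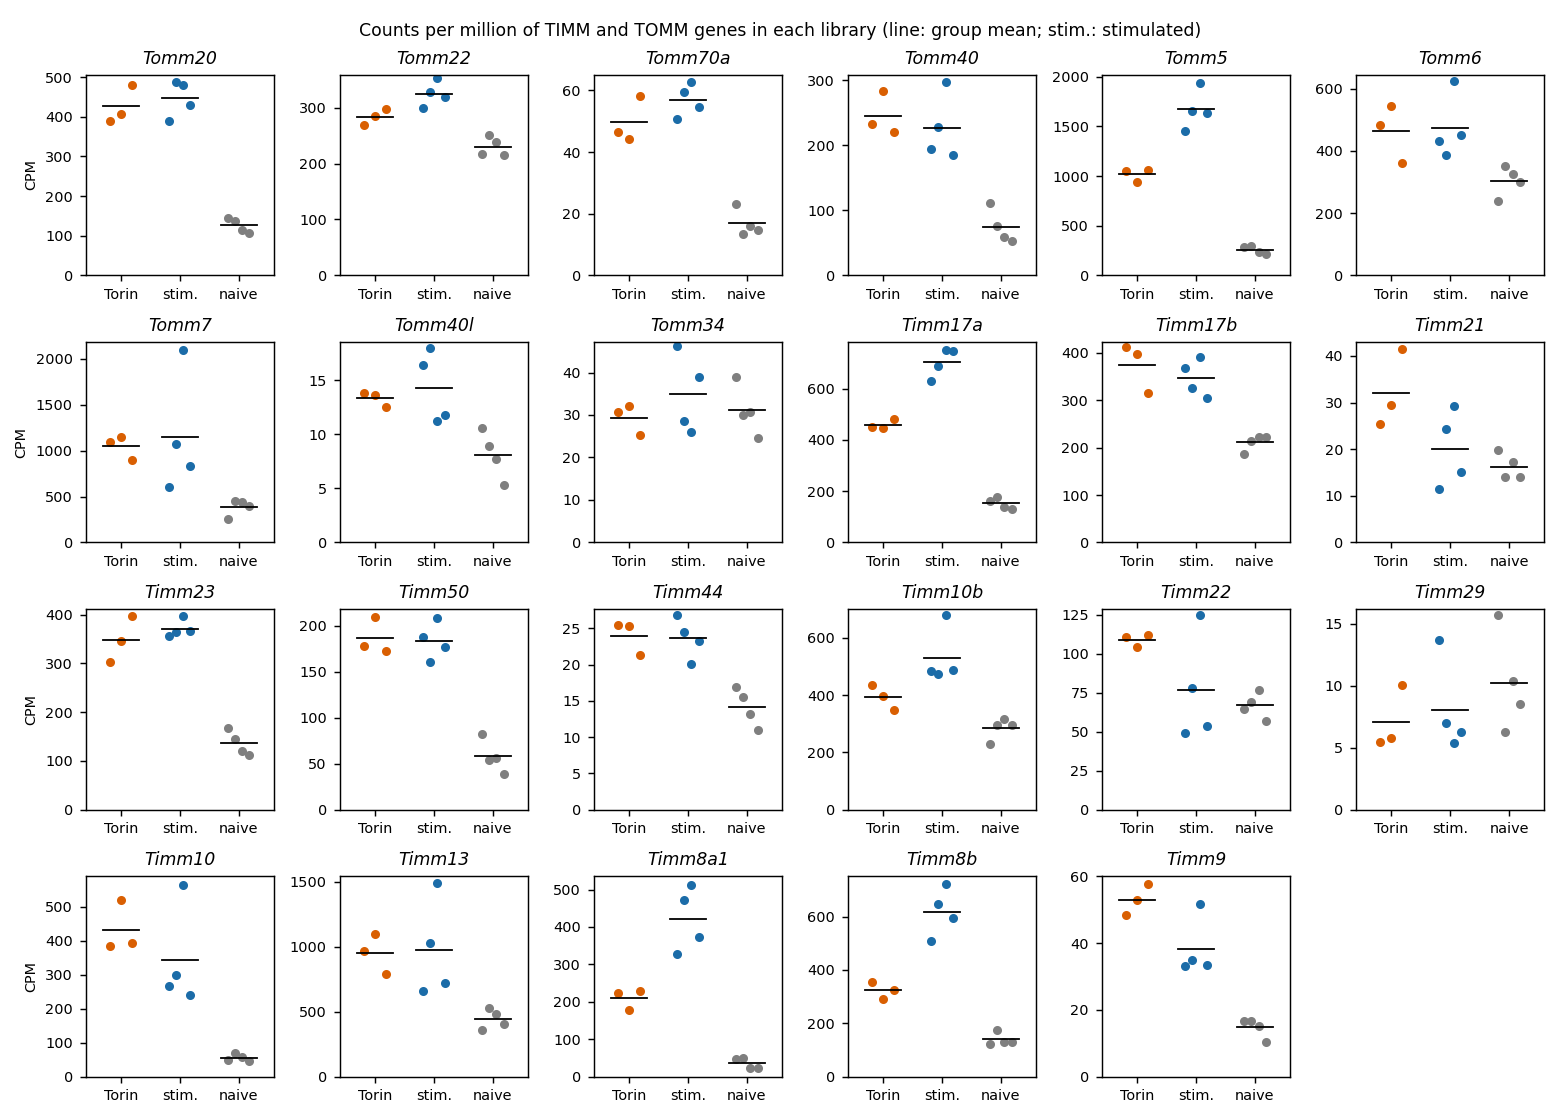
Level of each of the 23 detected import genes (CPM, linear axis from 0) in every Torin, stimulated (stim.) and naive library, with the group mean as a line. Naive libraries lie lowest for most genes, Tomm5 for instance at 212 to 298 CPM, and the Torin points of Tomm5, Timm17a and Timm8b lie between those of the stimulated and naive groups.

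The next comparison asked how Torin changed the response to N4. Most import genes did not differ by the test: of 24 tested, none rose, 3 fell (12.5%) and 21 did not pass, with a median log2 change of -0.10, beside -0.02 for all genes. Of all genes, 4.62% changed, 2.32% higher and 2.3% lower, or 515 and 512 genes. With library totals alone that split was 719 higher and 345 lower, and the medians were 0.11 for all genes and 0.07 for the import genes. At an unadjusted p under 0.05, 2 import genes were higher in edgeR, and 0 passed as higher in DESeq2. The 3 that fell were Timm8b, Tomm5 and Timm17a, all among the genes with large rises after stimulation, and that comparison shares the stimulated libraries with this one. With replicate number as a block, only Timm8b fell, beside 438 of the 22238 genes tested. In 6 of the 24 genes (Tomm22, Tomm5, Timm17a, Timm10b, Timm8a1 and Timm8b) every Torin library lay below every stimulated library, against 10.1% of all genes, and in the other direction the share of all genes was 9.55%.

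Timm8b had 353, 290.3 and 326 CPM in Torin 1, 3 and 4, against 507, 647, 722 and 596 CPM in stimulated 1 to 4. The groups were well separated, with a log2 change of -0.94 (SE 0.171, adjusted p = 0.0157), and the call held with replicate number as a block (-0.86, adjusted p = 0.0316). Tomm5 had 1047, 941 and 1060 CPM in Torin 1, 3 and 4, all below the lowest stimulated library at 1455 CPM (log2 change -0.72, SE 0.158, adjusted p = 0.0313). With the replicate block its change was -0.68 (adjusted p = 0.0663), past the threshold no longer. Timm17a had 452, 446 and 480.3 CPM in Torin 1, 3 and 4, against 631, 689, 752 and 746 CPM in stimulated 1 to 4 (log2 change -0.62, SE 0.136, adjusted p = 0.0314). With the block it was -0.59 (adjusted p = 0.0677). Torin 1, 3 and 4 were each lower than the stimulated library of the same number for all 3 genes. Without the libraries of number 4, where 55 of all genes were called, none of the 3 passed, with log2 changes of -0.94 (adjusted p = 0.137), -0.74 (0.163) and -0.60 (0.184) for Timm8b, Tomm5 and Timm17a. Without the libraries of number 2, Tomm5 (adjusted p = 0.0757) and Timm17a (adjusted p = 0.071) were lost. All 3 calls were also lost when any one Torin library was left out, and those of Tomm5 and Timm17a without stimulated 2 or stimulated 4, with library totals alone or with no filter on low counts.

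Timm8a1 showed the largest fitted change among genes with more than a few counts. It had 224, 179 and 229 CPM in Torin 1, 3 and 4, against 329, 472, 512 and 373 CPM in stimulated 1 to 4. The groups did not overlap and the Torin mean stood at 0.5 of the stimulated mean, yet the change missed the threshold (log2 change -1.0, SE 0.31, adjusted p = 0.0988). It passed in DESeq2 (-1.03, adjusted p = 0.00868), among genes of at least 5 CPM (-1.03, adjusted p = 0.041) and in a fit of these groups alone (-0.98, adjusted p = 0.0297). Timm10b, at 393 ± 44.8 CPM in Torin and 531 ± 98.6 CPM in stimulated libraries, also missed it (log2 change -0.44, SE 0.173, adjusted p = 0.187).

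Of the 8 genes with a positive fitted change, none of which passed, the 4 largest were Timm21 (0.68, SE 0.307, adjusted p = 0.248), Timm22 (0.51, SE 0.278, adjusted p = 0.338), Timm9 (0.47, SE 0.206, adjusted p = 0.235) and Timm10 (0.33, SE 0.282, adjusted p = 0.581). Timm22 passed without stimulated 3, its highest stimulated library (0.82, adjusted p = 0.0333). The receptors Tomm20 (-0.07, SE 0.151) and Tomm70a (-0.20, SE 0.194), the channel Tomm40 (0.12, SE 0.258), Timm17b (0.11, SE 0.143), Timm23 (-0.09, SE 0.161), Timm50 (0.03, SE 0.218) and Timm44 (0.02, SE 0.175) had fitted changes around or within 1 SE of 0. These sizes do not show that the groups were equal.

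**Figure D3:**
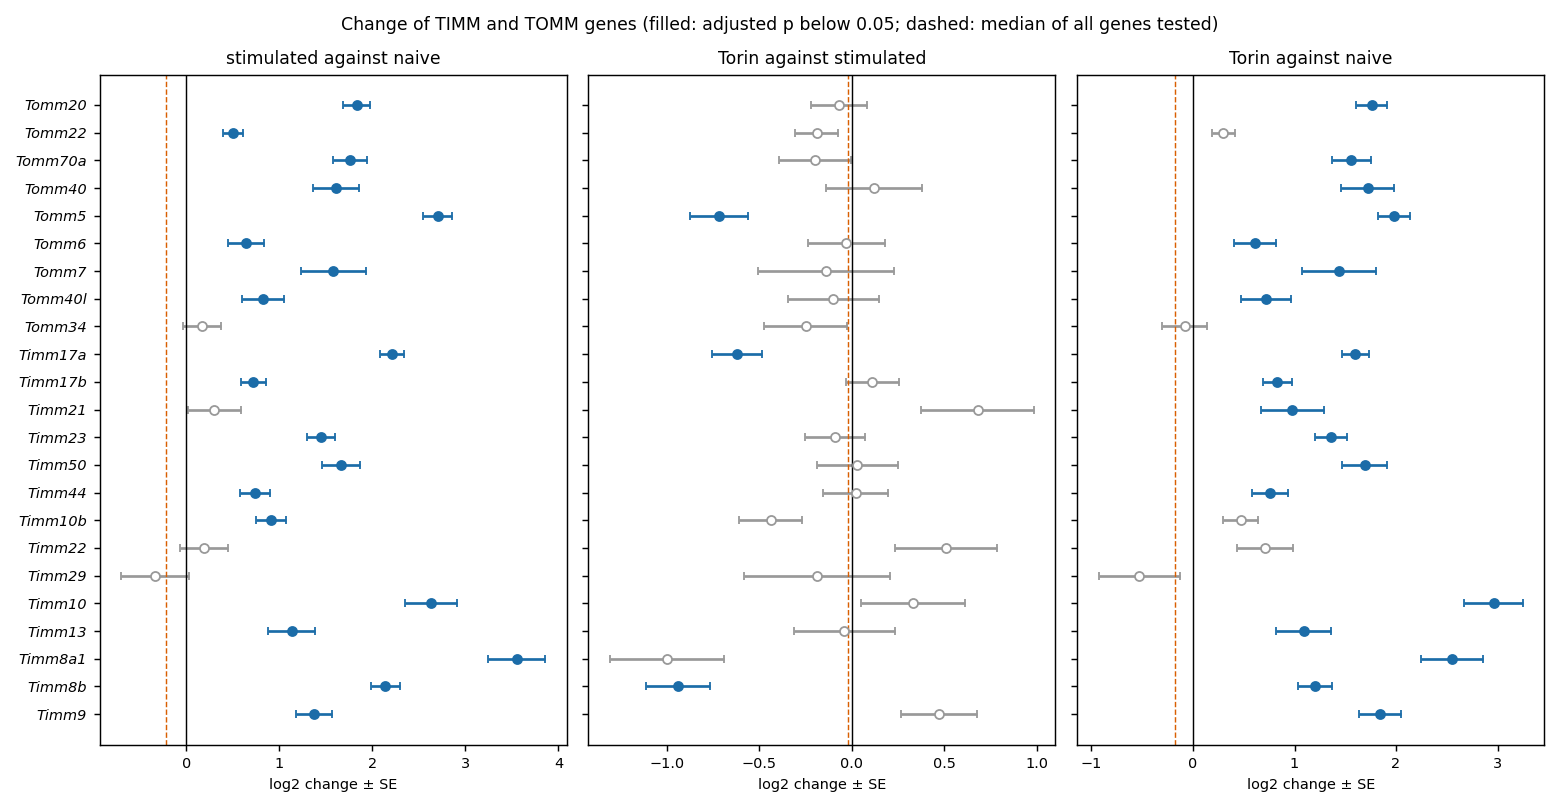
Fitted log2 change ± SE of 23 import genes in the comparisons of stimulated with naive, Torin with stimulated and Torin with naive libraries, with filled points for an adjusted p below 0.05, a solid line at 0 and a dashed line at the median of all genes tested. In the middle panel only Tomm5 (-0.72), Timm17a (-0.62) and Timm8b (-0.94) are filled, while Timm8a1 (-1.0) has a wider error.

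Against naive cells, the Torin group still had raised import genes. Of 24 tested, 18 were higher (75.0%), none were lower and 6 did not pass (Tomm22, Tomm34, Timm10b, Timm22, Timm29 and Timm8a2), with a median log2 change of 1.15, beside -0.18 for all genes. Of all genes, 32.2% changed, 16.4% higher and 15.8% lower, or 3648 and 3515 genes. With library totals alone that split was 2284 and 4553, and 14 import genes were higher. At an unadjusted p under 0.05, 1 import gene was lower in edgeR (Timm8a2), and 0 passed as lower in DESeq2. In 21 of the 24 genes every Torin library lay above every naive library, against 21.1% of all genes. This comparison shares libraries with both others, so the values are given side by side only. The 3 genes that fell with Torin stayed above naive levels, with log2 changes of 1.98 for Tomm5 (SE 0.157, adjusted p = 3e-05), 1.60 for Timm17a (SE 0.134, adjusted p = 3.46e-05) and 1.20 for Timm8b (SE 0.166, adjusted p = 0.000335). The largest was Timm10, with 385, 520 and 394 CPM in Torin 1, 3 and 4, against 45.7 to 68.7 CPM in naive libraries (log2 change 2.96, SE 0.292, adjusted p = 6.17e-05). Timm8a1 was next at 2.55 (SE 0.308, adjusted p = 0.00016), and Timm9, at 1.84 (SE 0.208, adjusted p = 0.000115), lay below Tomm5.

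Timm21 passed here and not in stimulated cells, with 25.3, 29.4 and 41.5 CPM in Torin 1, 3 and 4, against 14.0 to 19.8 CPM in naive libraries (log2 change 0.98, SE 0.307, adjusted p = 0.0313). Its call was lost with the replicate block (0.99, adjusted p = 0.0515) and without the libraries of number 2 (0.91, adjusted p = 0.0826) or 4 (0.80, adjusted p = 0.153), and the direct comparison of Torin with stimulated cells did not pass. Timm22 had 111, 104 and 112 CPM in Torin 1, 3 and 4, above the naive range of 57.0 to 77.0 CPM, and missed the threshold (log2 change 0.71, SE 0.278, adjusted p = 0.0756) but passed with the replicate block (0.77, adjusted p = 0.0475). The near-absent Timm8a2 became a lower call with the block (adjusted p = 0.0361). The calls of Tomm6 (0.61, adjusted p = 0.0423) and Tomm40l (0.72, adjusted p = 0.0431) lay close to the threshold. Over 21 alternative settings, Tomm6 passed in 9 (log2 changes 0.28 to 0.877) and Tomm40l in 11. The call of Tomm40l was lost without the libraries of number 2 (adjusted p = 0.0625) or 4 (adjusted p = 0.0764).

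Pairs of related genes were also compared as log2 ratios of counts within each library, which do not depend on scaling between libraries. Of 7 pairs, 5 had enough counts for a test, giving 15 tests. The ratio of Timm17a to Timm17b, alternative subunits of the same channel, was 0.13, 0.17 and 0.61 in Torin 1, 3 and 4, then 0.78, 1.08, 0.94 and 1.29 in stimulated 1 to 4, and -0.20, -0.29, -0.68 and -0.77 in naive 1 to 4. The 3 groups did not overlap: Timm17b had the higher count in every naive library and Timm17a in every other library. Counts are not scaled by transcript length, so they do not show which subunit had more transcripts. In mean TPM with annotated lengths Timm17b was higher in all 3 groups. It had 131 TPM in Torin, 109 in stimulated and 99.8 in naive libraries, against 67.3, 82.4 and 36 for Timm17a. With the mean length of protein-coding transcripts these were 250, 202 and 194 against 155, 207 and 70.5 TPM. The mean log2 ratio of counts differed by 1.51 between stimulated and naive, by -0.72 between Torin and stimulated and by 0.78 between Torin and naive libraries. Each gave p = 0.0286 in a two-sided exact permutation test, the smallest that permutations can give here (Benjamini-Hochberg adjusted p = 0.0476 over the 15 tests). None of the 3 passed in this test with protein-coding transcripts alone (adjusted p = 0.0536 each), where the differences were 1.54, -0.74 and 0.80. Nor did any pass with permutation within replicate numbers (adjusted p = 0.312 each).

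Timm8a1 over Timm8b stood at -0.62 ± 0.10 in Torin, -0.56 ± 0.10 in stimulated and -2.06 ± 0.57 in naive libraries (mean ± SD, n = 3, 4 and 4). The stimulated mean was 1.49 above the naive mean (exact permutation p = 0.0286, adjusted p = 0.0476). Between Torin and stimulated libraries it differed by -0.06 (exact permutation p = 0.486), as both genes had lower counts in the Torin libraries. Timm13 over Timm8b was 1.55 ± 0.33 in Torin, 0.59 ± 0.35 in stimulated and 1.66 ± 0.15 in naive libraries. The stimulated mean was lower than the naive mean, a difference of -1.07 (exact permutation p = 0.0286, adjusted p = 0.0476), and the Torin mean was 0.95 above the stimulated mean without passing after adjustment (exact permutation p = 0.0571, adjusted p = 0.0779). Timm9 over Timm10 differed by -1.19 and Tomm40 over Tomm40l by 0.81 between stimulated and naive libraries (adjusted p = 0.0476 each, exact permutation test). With protein-coding transcripts alone none of these passed, with adjusted p-values of 0.0536 in this test, or 0.117 for Tomm40 over Tomm40l. The adjustment runs over all ratio tests together. The adjusted p of Timm8a1 over Timm8b thus rose to 0.0536 although its difference stayed at 1.49. The others were -1.04 for Timm13 over Timm8b, -1.09 for Timm9 over Timm10 and 0.62 for Tomm40 over Tomm40l. A permutation within replicate numbers cannot reach the threshold with 4 pairs or fewer (adjusted p = 0.312 for each of these differences).

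**Figure D4:**
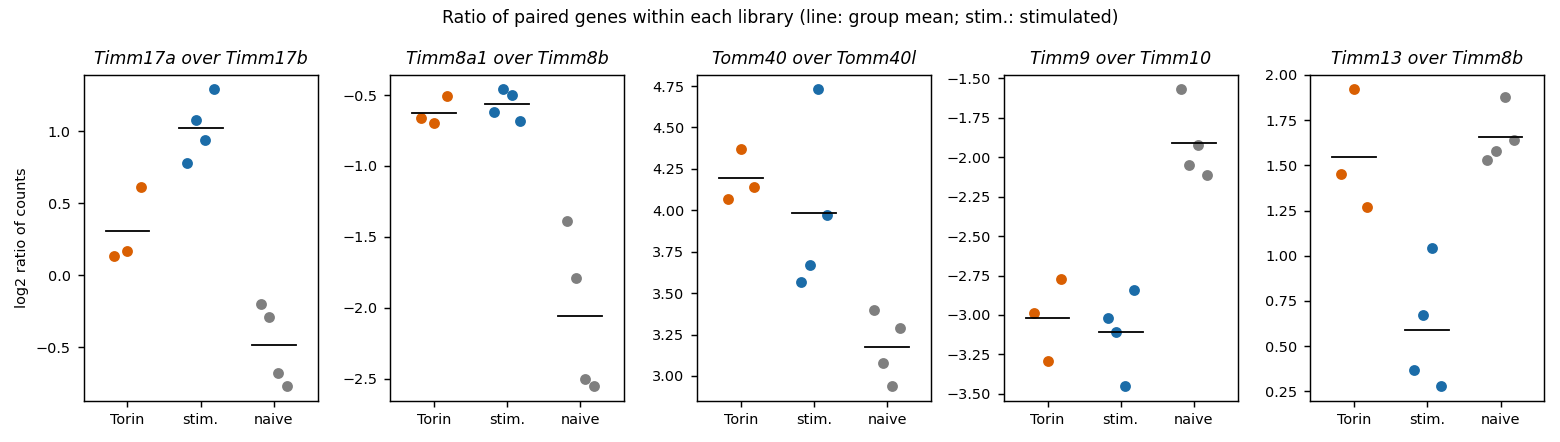
Log2 ratio of counts of 5 gene pairs in each Torin, stimulated (stim.) and naive library, with the group mean as a line. The Timm17a to Timm17b ratio is separate in all 3 groups, at 0.13 to 0.61 in Torin, 0.78 to 1.29 in stimulated and -0.77 to -0.20 in naive libraries.

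The deposited transcript table listed 110 transcripts of these genes, of which 93 could be tested. In 16 of the 25 genes 1 transcript held at least 90% of the gene's counts. Stimulated against naive, 34 transcripts rose and 3 fell, beside 10.1% and 9.03% of 54864 transcripts tested. The 3 that fell are annotated as retained introns, of Tomm34 (Tomm34-203), Tomm6 (Tomm6-203) and, at under 0.1 CPM, Timm44 (Timm44-205). Tomm34-203 averaged 1.5 CPM in stimulated and 4.48 CPM in naive libraries (log2 change -1.58, SE 0.456, adjusted p = 0.0355), and Tomm6-203 averaged 5.75 and 11.9 CPM (log2 change -1.05, SE 0.305, adjusted p = 0.0367). Tomm34-203 held 5.3, 3.5, 6.4 and 2.0% of Tomm34 counts in stimulated 1 to 4, against 10.6, 20.5, 13.5 and 15.8% in naive 1 to 4, so the shares did not overlap.

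For Tomm5, both main protein-coding transcripts rose, Tomm5-204 by 2.66 (SE 0.129, adjusted p = 2.62e-05) and Tomm5-202 by 3.31 (SE 0.228, adjusted p = 2.83e-05). Tomm5-202 held 18, 18.3, 21.1 and 20.9% of Tomm5 counts in stimulated 1 to 4, against 15.3, 13.7, 13.1 and 11.4% in naive 1 to 4. Its share was thus higher in every stimulated library, and it was 18.1, 18.1 and 22.6% in Torin 1, 3 and 4. Torin against stimulated, no transcript rose (4 at an unadjusted p under 0.05 in edgeR) and 2 fell, beside 0.224% and 0.301% of all transcripts (0.525% in either direction). These were Tomm5-204 (log2 change -0.75, SE 0.134, adjusted p = 0.046) and Timm8b-201, the single Timm8b transcript listed (-0.96, SE 0.168, adjusted p = 0.0415), and neither passed with the replicate block. Torin against naive, 25 rose and none fell (3 at an unadjusted p under 0.05), beside 7.35% and 5.71%. Tomm34 was split among transcripts: Tomm34-202 held 29.4, 29.6 and 55.8% of its counts in Torin 1, 3 and 4, against 68.2, 68.3, 87.0 and 68.3% in stimulated 1 to 4, and 43.4, 53.2, 54.8 and 24.2% in naive 1 to 4. The stimulated shares lay above all others, but the level of Tomm34-202 did not pass in any comparison (adjusted p = 0.0739, 0.185 and 0.649 for stimulated against naive, Torin against stimulated and Torin against naive).

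Some import genes share sequence with other genes, so their counts are uncertain. Of the 50-base windows in each gene's main transcript, 90.9% for Timm23 also occur in Gm10273, 86.7% for Tomm6 in Gm21981, and 41.0% for Timm8a1 in the pseudogene Gm9797. Gm9797 moved beside Timm8a1, at 116 ± 13.3 CPM in Torin, 243 ± 51.7 CPM in stimulated and 19.2 ± 8.55 CPM in naive libraries. Its log2 change was 3.66 between stimulated and naive libraries (adjusted p = 1.44e-05) and -1.06 between Torin and stimulated libraries (adjusted p = 0.0934). How reads were divided between these genes was not tested. Many import genes overlap a neighbour on the opposite strand, such as Timm8b with Nkapd1, Timm13 with Tmprss9 and Tomm34 with Stk4. The sources used here do not say whether counting used strand.

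A list of 37 genes of mitochondrial protein import, processing, folding, turnover and related functions, not all direct partners of the translocases, was read from the same fit. Stimulated against naive, 25 rose (67.6%), 2 fell and 10 did not pass, with a median log2 change of 0.97. Of all genes, 19.2% were higher and 20.2% lower. The matrix chaperonin genes Hspe1 and Hspd1, whose products fold imported proteins, had the largest rises, at 3.94 (SE 0.331, adjusted p = 1.12e-05) and 2.63 (SE 0.336, adjusted p = 0.000115). Hspe1 had 3899, 4875, 5163 and 5238 CPM in stimulated 1 to 4, against 471, 400.5, 190 and 186 CPM in naive 1 to 4. Chchd4, the receptor that oxidises small TIM proteins on entry, rose by 2.62 (SE 0.176, adjusted p = 6.72e-06), and Gfer, the oxidase that recharges it, by 1.41 (SE 0.115, adjusted p = 1.03e-05). The matrix protease gene Lonp1 rose by 2.46 (SE 0.217, adjusted p = 1.42e-05).

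In the import motor, Hspa9, the chaperone that pulls precursors inward, averaged 119 CPM in stimulated and 22.2 CPM in naive libraries (log2 change 2.43, SE 0.239, adjusted p = 2.6e-05). Its exchange factors Grpel1 (0.99) and Grpel2 (1.13) and the regulators Pam16 (1.45) and Dnajc19 (1.46) also rose, as did Romo1 (2.13), a small inner membrane protein. Dnajc15, a relative of Dnajc19, moved the other way, at 588 CPM in stimulated and 1015 CPM in naive libraries (log2 change -0.79, SE 0.196, adjusted p = 0.00784). That call was lost without the libraries of number 4 (-0.64, adjusted p = 0.094). The presequence peptidase genes Pmpca (0.87) and Pmpcb (1.16) and the outer membrane assembly gene Samm50 (0.72) rose. With library totals alone their changes were 0.395, 0.681 and 0.222 and missed the threshold (adjusted p = 0.147, 0.0514 and 0.355). Yme1l1 and Oma1, inner membrane proteases, did not pass (log2 changes 0.12 and -0.30, adjusted p = 0.682 and 0.508). The largest fall was that of Mtch1, at -1.63 (SE 0.128, adjusted p = 9.89e-06), while its paralog Mtch2, an insertase of the outer membrane, rose by 1.51 (SE 0.13, adjusted p = 1.25e-05).

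Torin against stimulated, 1 of these 37 genes rose and 5 fell (13.5%), with a median of -0.16, beside 2.32% and 2.3% of all genes. Mtch1 had 48.1, 55.5 and 48.8 CPM in Torin 1, 3 and 4, against 36.9, 30.8, 28.5 and 27.5 CPM in stimulated 1 to 4 (log2 change 0.72, SE 0.134, adjusted p = 0.0174). Mtch2 had 331, 285 and 373 CPM in Torin 1, 3 and 4, against 553, 583, 578 and 598 CPM in stimulated 1 to 4 (log2 change -0.81, SE 0.14, adjusted p = 0.0137). These paralogs thus moved in opposite directions in both comparisons, which share the stimulated libraries. Lonp1 fell by 1.28 (SE 0.23, adjusted p = 0.0149) and Romo1 by 1.02 (SE 0.176, adjusted p = 0.0136). Hspe1 fell by 1.37 (SE 0.33, adjusted p = 0.0426) and Pam16 by 0.57 (SE 0.143, adjusted p = 0.0471), and with the replicate block they had adjusted p-values of 0.069 and 0.0583. None of these 6 calls was past the threshold in every alternative. Without the libraries of number 4 all 6 were lost, with adjusted p-values of 0.133 for Mtch1, 0.0985 for Mtch2, 0.0828 for Lonp1, 0.145 for Romo1, 0.15 for Hspe1 and 0.204 for Pam16. Without those of number 2, Mtch1 (0.0665), Lonp1 (0.056), Hspe1 (0.0965) and Pam16 (0.129) were lost by adjusted p. Against naive cells, 24 of the 37 were higher in Torin libraries and 2 lower (median 0.83), beside 16.4% and 15.8% of all genes. The lower ones were Mtch1 (-0.91, adjusted p = 0.000567) and Dnajc15 (-0.77, adjusted p = 0.018). The call of Dnajc15 was lost without the libraries of number 4 (-0.64, adjusted p = 0.149). Hspe1 (2.57), Hspd1 (2.39), Chchd4 (2.27) and Hspa9 (1.86) had the largest changes among the higher ones.

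Genes whose products depend on import were set beside the translocases as counts. Of 78 mitochondrial ribosomal protein genes, 56 rose and 2 fell between stimulated and naive libraries (median log2 change 1.02). Of all genes, 19.2% rose and 20.2% fell. Between Torin and stimulated libraries 0 rose and 7 fell in edgeR (median -0.22), beside 2.32% and 2.3% of all genes. At an unadjusted p under 0.05 there, 4 were higher and 18 lower, beside 4444 of all 22238 genes in either direction. In DESeq2 2 were higher and 16 lower, beside 1175 and 1565 of 19637 genes. With the replicate block 2 were higher and 2 lower, beside 527 and 438 of 22238 genes. Of 81 nuclear respiratory chain genes tested, 62 rose and 3 fell between stimulated and naive libraries (median 0.93), and 1 rose and 16 fell between Torin and stimulated libraries (median -0.57). With the replicate block these counts were 2 and 10, and in DESeq2 1 and 37. The translocase genes, with 19 and 0, then 0 and 3, had medians of 1.25 and -0.10 in the same comparisons. Whether the lists differ from each other was not tested. The 13 mitochondrially encoded transcripts summed to 13300 to 24700 CPM in Torin, 15100 to 25900 CPM in stimulated and 11500 to 18800 CPM in naive libraries, and the ranges overlapped. Taken singly, 4 of the 13 were called higher (30.8%) and 0 lower between stimulated and naive libraries (median 0.54), beside 19.2% and 20.2% of all genes. Between Torin and stimulated libraries 0 were called in either direction (median -0.01).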

How the data were processed

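RNA of 11 libraries was measured as gene and transcript tables of estimated counts, used as the authors deposited them. The submitters' processing notes name STAR 2.7.1a, beside DESeq2 1.30.1, R 4.0.5, StringTie 2.1.0 and SAMtools 1.9, without roles, and the mm39 build. All values are whole numbers, so none was rounded. Library totals (241865667 to 405884097 counts) are larger than common read depths, and no source used here says why, so precision is taken from the spread between libraries and not from counting intervals. All columns of both tables were used. Libraries made with a poly(A) kit, per the labels, were grouped by title, and columns named Control were taken as the stimulated group given DMSO. The members were found by symbol, and this rule, the gene lists and the tests were chosen with earlier results of these data known.

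Symbols came from GENCODE M21 for 52081 genes (94.0%), matched by identifier without version. The annotation is on GRCm38, so no member coordinates are given apart from RefSeq promoter windows. Genes and, separately, transcripts entered the quasi-likelihood F test of edgeR 4.0.16, run in R 4.3.3 (TMM factors, filterByExpr at a minimum count of 10, 1 model of 3 group means), with Benjamini-Hochberg adjustment over all features and a threshold of 0.05. CPM used TMM-scaled totals. TPM used annotated transcript lengths and no TMM factors, so TPM and CPM can differ in direction between groups. Ratios added 0.5 to each count and were tested by two-sided exact permutation. Deviations of same-numbered libraries from their group means correlated at 0.15 to 0.29 (stimulated with naive) and 0.11 to 0.31 (Torin with stimulated). Correlations between different numbers reached at most 0.07, so the numbers pair those groups, though weakly for Torin 1 with stimulated 1 (0.11). For Torin with naive one pair reached only 0.08. Blocked values are given beside calls they change. All members were named. Of the list of 37 further genes, 14 fixed ones and the 4 largest rises and falls per comparison were named. Transcripts named hold at least 10% of their gene's counts or were called as lower. The gene-level fit was tested on simulated counts for stimulated against naive and Torin against stimulated. The other steps were not tested in that way. Alternatives were DESeq2 1.42.0, RLE size factors, library totals, other filters, only the groups compared, the replicate block, the description prefix as a batch term, and each library or the libraries of number 2 or 4 left out.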

Additional observations from a re-analysis of the deposited data

Results flagged for a closer look

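In 3 of 46 groups of 4 libraries, 1 library stood apart from the rest, where chance gives about 1 in 20. Timm10b had 679 CPM in stimulated 3, against 475 to 489 CPM in the other stimulated libraries. Timm9 had 51.7 CPM in stimulated 3, against 33.1 to 34.9 CPM in the other stimulated libraries. Timm8b had 176 CPM in naive 2, against 123 to 132 CPM in the other naive libraries. Stimulated 3 had the lowest TMM factor (0.727, against 0.878 to 0.963 in the other stimulated libraries), and naive 2 had the highest sum of granulocyte markers (8570 CPM). Their part in these values was not tested.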

How the results depend on the processing

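Of the import genes called, 14 of 19 (stimulated against naive), 0 of 3 (Torin against stimulated) and 14 of 18 (Torin against naive) were past the threshold in every alternative run. Blocked fits, where the replicate numbers pair the libraries, left 1 import gene lower (Timm8b), against 3, and 0 transcripts, in Torin against stimulated, and 1 lower (Timm8a2) in Torin against naive. Beside those given with the results, the block changed no other call of an import gene. The count of import genes lower in Torin against stimulated was also 1 with library totals alone, with no filter, with the description prefix and without the libraries of number 2, and 0 without those of number 4. It ranged from 0 to 3 over single libraries left out, with 0 without any one Torin library, and from 0 to 1 for those higher (1, Timm22, without stimulated 3). Members lower against naive numbered 1, Timm8a2, for stimulated libraries without those of number 4, and for Torin libraries in a fit of these groups alone. With single libraries left out they numbered 0 to 1 in both comparisons. Transcripts changed in Torin against stimulated numbered 1 with library totals alone, 0 with no filter and 0 to 2 with single libraries left out.

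Over all genes, stimulated against naive gave 2600 higher with library totals and 2776 among genes of at least 5 CPM, and Torin against naive gave 2284 higher with library totals and 2333 lower without the libraries of number 4. For Torin against stimulated, genes higher and lower numbered 1175 and 1565 in DESeq2, 335 and 321 with no filter, 334 and 341 with the prefix, 153 and 185 without number 2, 23 and 32 without number 4, and 83 to 508 and 61 to 550 with single libraries left out. The cause was not tested. With the mean length of protein-coding transcripts, 31 of 75 mean TPM values stayed within 1 SD of those given.

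Signs turned only for changes that passed in neither setting. With library totals these were, for stimulated against naive, Tomm34 (-0.30), Timm21 (-0.25), Timm22 (-0.35) and Yme1l1 (-0.34). For Torin against stimulated they were Tomm20 (0.086), Tomm6 (0.13), Tomm7 (0.076), Tomm40l (0.021), Timm23 (0.060), Timm13 (0.15), Samm50 (0.044), Pmpca (0.12) and Yme1l1 (0.003), and for Torin against naive Tomm22 (-0.034) and Oma1 (-0.22). In the replicate block, Tomm7 (0.062), Tomm40l (0.018), Timm50 (-0.009), Timm13 (0.089) and Pmpca (0.024) turned for Torin against stimulated. In the prefix fit, Tomm40l (0.020), Timm50 (-0.009), Timm13 (0.055) and Pmpca (0.024) turned there, as did Yme1l1 (0.018) for Torin against naive. RLE factors and DESeq2 each gave Timm50 -0.002, Timm44 -0.010 and Dnajc15 -0.011 for Torin against stimulated. Among genes of at least 5 CPM, Timm44 (-0.002) and Dnajc15 (-0.007) turned there, Yme1l1 (-0.019) for stimulated against naive and Oma1 (-0.022) for Torin against naive. In fits of the groups compared alone, Pmpca was 0.007 for Torin against stimulated and Yme1l1 0.023 for Torin against naive. Without number 2, Tomm40l (0.023), Timm50 (-0.032), Dnajc15 (-0.033) and Pmpca (0.015) turned for Torin against stimulated and Timm8a2 (0.041) for stimulated against naive. Without number 4, Tomm6 (0.12) and Dnajc15 (-0.002) turned for Torin against stimulated and Tomm34 (0.039) for Torin against naive.

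With single libraries left out, changes crossed 0 for stimulated against naive in Timm22 (-0.067 to 0.36), Timm8a2 (-8.83 to 0.036) and Oma1 (-0.48 to 0.056). For Torin against stimulated they did so in Tomm6 (-0.16 to 0.14), Tomm7 (-0.35 to 0.285), Tomm40l (-0.25 to 0.023), Timm23 (-0.18 to 0.003), Timm50 (-0.063 to 0.103), Timm44 (-0.097 to 0.12), Timm29 (-0.51 to 0.19), Timm13 (-0.19 to 0.20), Dnajc19 (-0.61 to 0.039), Dnajc15 (-0.076 to 0.215), Pmpca (-0.13 to 0.103), Yme1l1 (-0.36 to 0.049) and the ratio of Timm9 to Timm10 (-0.039 to 0.22). For Torin against naive they did so in Tomm34 (-0.18 to 0.125), Yme1l1 (-0.15 to 0.17), Oma1 (-0.042 to 0.33) and the ratio of Timm13 to Timm8b (-0.30 to 0.024). With 3 Torin libraries, leaving 1 out leaves 2, whose spread is taken from all groups.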
